A study of Mus musculus with 12 samples.

Results

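The diet effect common to the vessels of 2 tissues was examined in sorted mouse endothelial cells. For each of 6 pools of mice, the log2(normalized count + 1) value of a gene was averaged over its mesentery library and its epididymal fat library. The 3 high fat pools, numbered 52, 53 and 88, were then compared with the 3 chow pools, numbered 50, 51 and 87. All 12 libraries of the study entered, and 22238 of 27825 genes passed a mean of at least 10 normalized counts over the 12 libraries. A gene is referred to as called where its adjusted p fell under 0.05 (limma, Benjamini-Hochberg over the 22238 genes), and as shared where a called gene also moved the same way in both tissues. There were 16 called genes, of which 15 were shared.

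The mice were males of the genotype ROSA26-eYFP+/+ Cdh5-CreERT2+, in which a Cre recombinase driven by the endothelial gene Cdh5 and activated by tamoxifen turns on a yellow fluorescent protein. All groups, chow included, had tamoxifen in their food for 2 weeks from the age of 6 weeks. From 8 weeks of age they ate normal chow (5.8% fat) or a high fat diet (60% fat) for 12 to 13 weeks, after which fluorescent cells were sorted from mesentery, the membrane that carries the gut's vessels, and from the epididymal fat pads, with 6 mice combined in each sample. Each of the 4 groups (2 tissues, 2 diets) had 3 libraries; since the labels mention 2 independent replicates beside 3 letters, the p-values below measure only the spread between these libraries, which may be technical in part. The mesentery and the epididymal library of a pool carry the same number, but the labels do not say that they came from the same mice. The fluorescent mark is permanent once switched on, and the sorted fraction was read in bulk.

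Endothelial cells of fat and gut vessels face dietary lipid directly: they help to release fatty acids from circulating lipoproteins, take them up and pass them to the tissue. In obesity, adipose tissue is known to lower its own synthesis of fatty acids, to gain macrophages that take up lipid, and to change its output of adipokines, the hormones and secreted proteins of fat cells. Aryl hydrocarbon receptor signalling, which senses planar aromatic compounds of the diet and of microbes, induces Cyp1a1 in endothelium among other tissues.

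Library totals ranged from 8348897 to 25397963 reads assigned to genes. The endothelial markers Cdh5 and Pecam1 were present in all libraries, at 2172 to 4822 and at 3730 to 12974 normalized counts. Neither was called (log2 change -0.37, adjusted p 0.854, for Cdh5 and -0.36, adjusted p 0.827, for Pecam1; limma on pool means). In mesentery Pecam1 was at 11417 to 12974 on chow and at 9680 to 10307 on high fat, without overlap. In epididymal fat its diets overlapped. Among all genes tested, 9.61% separated the diets in mesentery, in either direction. Markers of other cells were present too. Adipoq, an adipocyte hormone, was at 398 to 1314 normalized counts in mesentery and at 526 to 7465 in epididymal fat, and the macrophage marker Adgre1 reached 3112 in epididymal fat on high fat and was at 0 in 1 library, of mesentery on chow. The mitochondrial share of reads was 20.6% in the mesentery library of chow pool 50 and between 2.50% and 11.5% in the others. Clps, a pancreatic gene, was high in every mesentery library (9315 to 79298 normalized counts) and at most 9.40 in epididymal fat.

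On pool means 10 genes were higher and 6 lower on high fat, which was 0.0719% of the genes tested (0.045% higher, 0.027% lower). The 9 shared genes that rose were Cd300c2, Lpxn, Igsf6, C1qb, Basp1, Angptl4, Capg, Anxa1 and Tmem106a; the 6 that fell were Cyp1a1, Cfd, Cyp2e1, Fasn, Retn and Thrsp. Lep was the called gene whose change had opposite signs in the tissues. Of the 16, 12 separated the diets without overlap in both tissues and in the same direction (8 higher, 4 lower). Among all genes tested, 0.751% did so higher and 0.585% lower. The 16 were picked by the diet difference in these same values, which raises their share by construction. In single tissues, 9.61% of all genes separated the diets in mesentery and 13.5% in epididymal fat, in either direction. Cyp2e1, Retn and C1qb were the shared genes with an overlap in mesentery. The number of calls moved with single pools: it was 0 without chow pool 50, 7 without chow pool 51, 100 without chow pool 87, 1 without high fat pool 88 or without pool 53, and 117 without pool 52. Cyp1a1 was the gene still called without pool 88 and without pool 53, and its adjusted p was 0.0513 without chow pool 50.

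Deviations of pools from their diet mean followed the number range: across diets they correlated, over genes, at 0.31 on average between pools of the same range (50 to 53, or 87 and 88) and at -0.39 between pools of different ranges. Deviations sum to 0 within a diet, so a positive mean within ranges makes a negative mean between ranges follow in part. Each diet had 1 pool numbered 87 or 88. With the range as a covariate 124 genes were called, all 16 among them; within pools 50 to 53 there were 0 calls, and pools 87 and 88 alone give no test. The threshold ran through a dense series of genes. Capg was just inside it (adjusted p 0.0466), Plin2, Cd300ld, Slc11a1, Gsta3 and Atp6v0d2 shared the place just outside it (adjusted p 0.0508 for each), and 21 genes had an adjusted p between 0.05 and 0.06. With an unadjusted p under 0.05 there were 910 higher genes (4.09%) and 566 lower genes (2.55%). These shares are the background for every list count at this threshold below. Rescaling the libraries with TMM factors gave 33 higher and 7 lower calls, a larger share of higher calls than the 10 and 6 above. Within single tissues, limma called 3 genes in mesentery (0.0135%) and 122 in epididymal fat (0.549%). Of the 16 genes called on pool means, 3 were also called in mesentery (Cyp1a1, Lep and Angptl4) and 12 in epididymal fat. Cyp1a1 was called in both, and C1qb and Lpxn in neither.

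**Figure D1:**
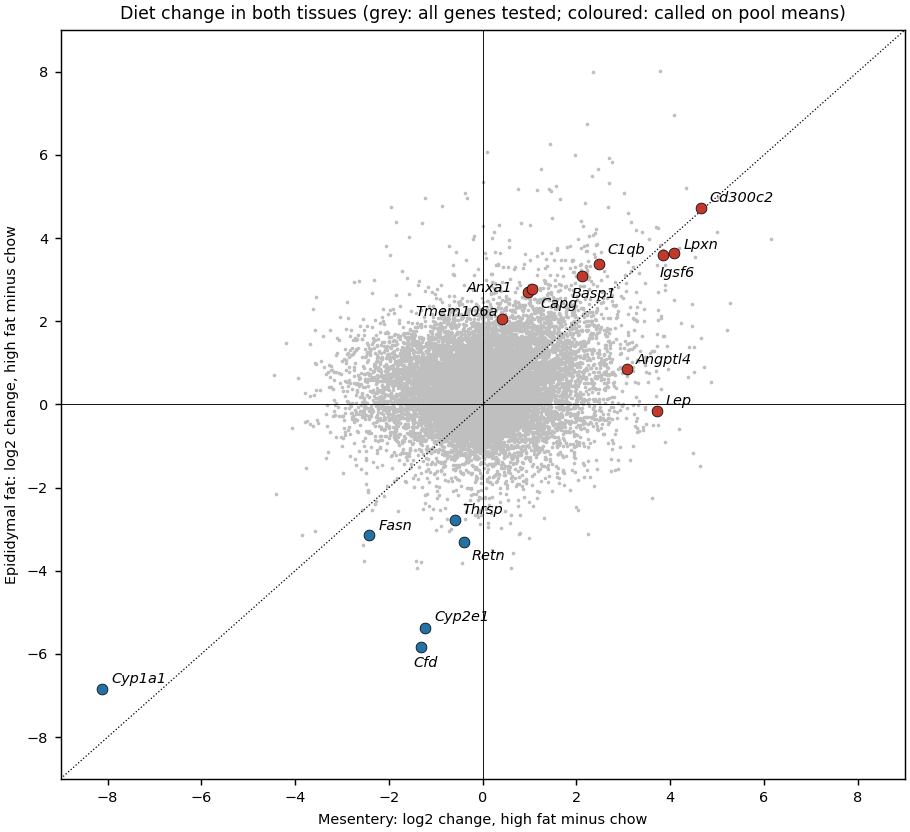
Log2 change between high fat diet and chow in mesentery (horizontal axis) and in epididymal fat (vertical axis), 1 point per gene tested; red and blue points are the genes called higher and lower on pool means, and the dotted line marks equal change. Cyp1a1 lies at the lower left near the line, with -8.11 and -6.84, Cfd and Cyp2e1 lie below the line, and Lep lies near 0 on the vertical axis.

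Cyp1a1 (ENSMUSG00000032315), a cytochrome P450 enzyme that oxidises aromatic compounds and a classical target of the aryl hydrocarbon receptor, had the largest change among the 16 called genes. In mesentery it was at 1685, 1852 and 3980 normalized counts in chow pools 50, 51 and 87, and at 2.77, 10.9 and 12.2 in high fat pools 52, 53 and 88. In epididymal fat it was at 382, 219 and 833 in the chow pools and at 3.30, 9.91 and 0 in the high fat pools. Every chow library was thus far above every high fat library in both tissues, and the high fat values were close to the smallest the libraries can resolve, since 3 reads correspond to between 2.12 and 4.22 normalized counts. The means went from 2506 ± 1280 to 8.60 ± 5.09 in mesentery and from 478 ± 318 to 4.40 ± 5.05 in epididymal fat (SD, n = 3). Cyp1a1 fell by 7.47 on the log2 scale on pool means (SE 0.55, adjusted p 0.00557, limma). In these bulk samples, fewer cells of a type and less RNA per cell cannot be told apart.

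By tissue, the change of Cyp1a1 was -8.11 in mesentery and -6.84 in epididymal fat on the log2 scale; the difference of 1.27 had a 95% interval from -1.58 to 4.12. Among the 9 genes measured in a list of the aryl hydrocarbon receptor pathway, Cyp1a1 was the called one. Over all genes tested, 0.0719% were called. With an unadjusted p under 0.05, 2 of the 9 were lower and 1 higher. Nqo1, a quinone reductase, was lower in all high fat libraries than in all chow libraries of both tissues. Its means were 419 ± 53.8 and 274 ± 72.0 normalized counts in mesentery on chow and high fat diet, and 1010 ± 124 and 429 ± 105 in epididymal fat (SD, n = 3), with a log2 change of -0.94 and an adjusted p of 0.0926 (limma). The receptor gene Ahr had a log2 change of -0.36 (adjusted p 0.798), and Cyp1b1, another P450 target of the receptor, was at 0.98 in the opposite direction (adjusted p 0.733). The list's median was -0.11, against 0.03 for all genes tested.

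The 250 bases upstream of the start of 15 of the 16 called genes were read from RefSeq (GRCm38.p6) and searched on both strands for the receptor's core motif GCGTG, the nuclear receptor half-site AGGTCA and the clock E-box CACGTG. They are shown for Cyp1a1, Fasn and Igsf6, which stand for the genes of xenobiotic metabolism, lipid synthesis and immune cells that moved in both tissues. Capitals mark motif letters on either strand (CACGC is GCGTG and TGACCT is AGGTCA on the opposite strand), and no 2 different motifs overlapped.
Cyp1a1, chr9:57697363-57697612, plus strand: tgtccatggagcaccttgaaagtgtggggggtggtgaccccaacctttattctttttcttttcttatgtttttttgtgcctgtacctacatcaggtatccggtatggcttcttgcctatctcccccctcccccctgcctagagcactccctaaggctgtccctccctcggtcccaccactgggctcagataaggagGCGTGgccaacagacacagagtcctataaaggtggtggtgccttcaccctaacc
Fasn, chr11:120824548-120824797, minus strand: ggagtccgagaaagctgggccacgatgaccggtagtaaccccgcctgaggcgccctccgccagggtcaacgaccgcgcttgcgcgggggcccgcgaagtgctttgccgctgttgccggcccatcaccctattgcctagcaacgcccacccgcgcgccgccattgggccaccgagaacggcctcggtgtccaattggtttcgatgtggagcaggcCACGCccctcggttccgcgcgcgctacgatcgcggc
Igsf6, chr7:121074531-121074780, minus strand: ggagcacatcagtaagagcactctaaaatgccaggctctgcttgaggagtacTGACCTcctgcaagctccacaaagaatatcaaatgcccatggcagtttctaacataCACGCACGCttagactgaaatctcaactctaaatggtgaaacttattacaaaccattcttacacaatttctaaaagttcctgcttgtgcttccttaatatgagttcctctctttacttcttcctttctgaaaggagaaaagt
GCGTG was found upstream of 4 of the 15 genes (Cyp1a1, Fasn, Igsf6 and Lpxn), while 28.2% of the 32851 promoters of the table hold it. In Cyp1a1 it began 54 bases before the start. AGGTCA was found in 3 of the 15 (Capg, Cd300c2 and Igsf6; 14% of all promoters) and CACGTG in 0 (6.02%). These are matches of letters in a short window; they do not show that a factor binds there.

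Fasn and Thrsp, both of fatty acid synthesis, fell on pool means and were lower in both tissues. Fasn (ENSMUSG00000025153), the synthase that builds long-chain fatty acids, was at 389, 356 and 1090 normalized counts in mesentery of chow pools 50, 51 and 87 and at 63.8, 132 and 115 in high fat pools 52, 53 and 88. Epididymal libraries had 925, 1232 and 2098 in the chow pools and 196, 165 and 107 in the high fat pools. The diets did not overlap in either tissue, and pool 87 was the highest chow pool in both. Fasn fell by 2.78 on the log2 scale on pool means (SE 0.33, adjusted p 0.0275, limma), which was 5.90-fold lower by group means in mesentery and 9.10-fold lower in epididymal fat.

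Thrsp (ENSMUSG00000035686), known as Spot 14, a nuclear protein that accompanies lipogenesis, fell by 1.68 on pool means (SE 0.19, adjusted p 0.0221, limma). Its mesentery values were 8957, 10539 and 8543 normalized counts on chow and 5883, 5420 and 7321 on high fat (pools 52, 53 and 88), without overlap. Its epididymal values were 12348, 13822 and 18264 on chow and 3524, 2111 and 1324 on high fat, also without overlap. Its log2 change was -0.60 in mesentery and -2.77 in epididymal fat. The difference of -2.17 had an unadjusted p of 0.00852 and an adjusted p of 0.891 (limma on within-pool differences).

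Of the 13 genes measured in the list of de novo lipogenesis, 2 were called (Fasn and Thrsp), both lower. Among all genes tested, 0.027% were called lower. With an unadjusted p under 0.05 there were 10 lower and 0 higher, and 12 had a negative change in both tissues, where 22.8% of all genes tested had one. The list's median log2 change was -0.86 on pool means, -0.60 in mesentery and -0.82 in epididymal fat. Members that did not pass the test included Scd1, the desaturase that makes monounsaturated fatty acids (log2 change -1.41, adjusted p 0.0804), Me1, the malic enzyme that supplies reducing power (-1.17, adjusted p 0.623), the elongase gene Elovl6 (-0.90, adjusted p 0.699) and Acaca, the carboxylase at the entry of the pathway (-0.86, adjusted p 0.696). The transcription factor genes Mlxipl and Srebf1 were at -1.52 (adjusted p 0.665) and -0.42 (adjusted p 0.583). The mean level of the 13 genes was between 8.83 and 9.79 in mesentery on chow against 8.35 to 8.57 on high fat, and between 9.79 and 10.07 in epididymal fat on chow against 8.38 to 8.85 on high fat. The ranges did not overlap in either tissue, and the mesentery library of chow pool 87 stood above the other chow libraries of that tissue.

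The adipokine genes Cfd and Retn fell on pool means too, with the larger part of the change in epididymal fat. Cfd (ENSMUSG00000061780), which encodes adipsin, a complement protease secreted by fat cells, was at 2775, 2256 and 3556 normalized counts in mesentery on chow (pools 50, 51 and 87) and at 1365, 910 and 1158 on high fat (pools 52, 53 and 88). Its epididymal values were 50724, 58630 and 41784 on chow and 2440, 556 and 486 on high fat. All high fat libraries were below all chow libraries in both tissues. Cfd fell by 3.58 on pool means (SE 0.32, adjusted p 0.0117, limma). Its change was -1.32 in mesentery and -5.84 in epididymal fat, and the difference of -4.52 (95% interval -6.18 to -2.86) had an unadjusted p of 0.000638 and an adjusted p of 0.862.

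Retn (ENSMUSG00000012705), the gene of the adipokine resistin, fell by 1.85 on pool means (SE 0.22, adjusted p 0.0275, limma). Its mesentery libraries overlapped, with 578, 665 and 1084 normalized counts on chow and 535, 479 and 725 on high fat. The epididymal libraries did not, with 7868, 9584 and 7657 on chow and 1770, 782 and 424 on high fat. Most of its pool mean change therefore came from epididymal fat (log2 change -3.31, against -0.39 in mesentery).

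Cyp2e1 (ENSMUSG00000025479), a P450 enzyme known from liver and fat that oxidises ethanol and fatty acids, fell by 3.30 (SE 0.34, adjusted p 0.0221, limma). Its mesentery values were 138, 125 and 398 normalized counts on chow and 73.5, 52.4 and 137 on high fat, with an overlap of the lowest chow library and the highest high fat library. Its epididymal values were 4233, 3651 and 3103 on chow and 228, 45.3 and 63.0 on high fat, a 32.7-fold difference of means. As for Retn, the separation was complete in epididymal fat and partial in mesentery.

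Lep (ENSMUSG00000059201), the gene of leptin, the satiety hormone of fat cells, was called on pool means (log2 change 1.78, SE 0.16, adjusted p 0.0117, limma) but did not move the same way in the tissues. In mesentery it was at 49.0, 23.3 and 40.8 normalized counts on chow and at 256, 456 and 974 on high fat, a log2 change of 3.71. In epididymal fat it was at 947, 1136 and 924 on chow and at 1531, 1029 and 467 on high fat, a log2 change of -0.14. The diets were fully apart in mesentery and overlapped in epididymal fat, so the pool mean value describes a change in mesentery. Averaging the linear values of a pool, which gives the higher epididymal level more weight, brought the log2 change of Lep to 0.59 (adjusted p 0.206, limma), and edgeR on reads summed per pool gave 0.54 (adjusted p 0.322).

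The list of adipokines and adipocyte markers had 16 measured members, of which 5 were called: Cfd, Retn, Fasn and Thrsp lower, and Lep higher. Among all genes tested, 0.0719% were called. Fasn and Thrsp are also the called genes of the de novo lipogenesis list, so these lists are not separate. The list was the one with the widest gap between tissues among the 30 lists described, with a median of 0.29 in mesentery and -2.03 in epididymal fat. Its summed level was 16069 to 21485 normalized counts in mesentery on chow and 12304 to 20158 on high fat, and it was 94608 to 115612 in epididymal fat on chow and 7095 to 22683 on high fat. The mesentery ranges overlapped and the epididymal ranges did not. The mean log2 level of the 16 genes, which weights them equally, was 7.64 to 7.99 in mesentery on chow and 8.00 to 8.60 on high fat, so that by this measure the mesentery libraries separated in the opposite direction to the epididymal ones. None of the defining markers Adipoq and Plin1 was at 0 in any library. Adipoq had a log2 change of -0.92 on pool means (adjusted p 0.0895, limma). Its change had opposite signs in the tissues, 0.81 in mesentery and -2.65 in epididymal fat. The part of adipocyte transcripts in the changes of Cfd, Retn, Cyp2e1, Fasn and Thrsp was not tested.

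**Figure D2:**
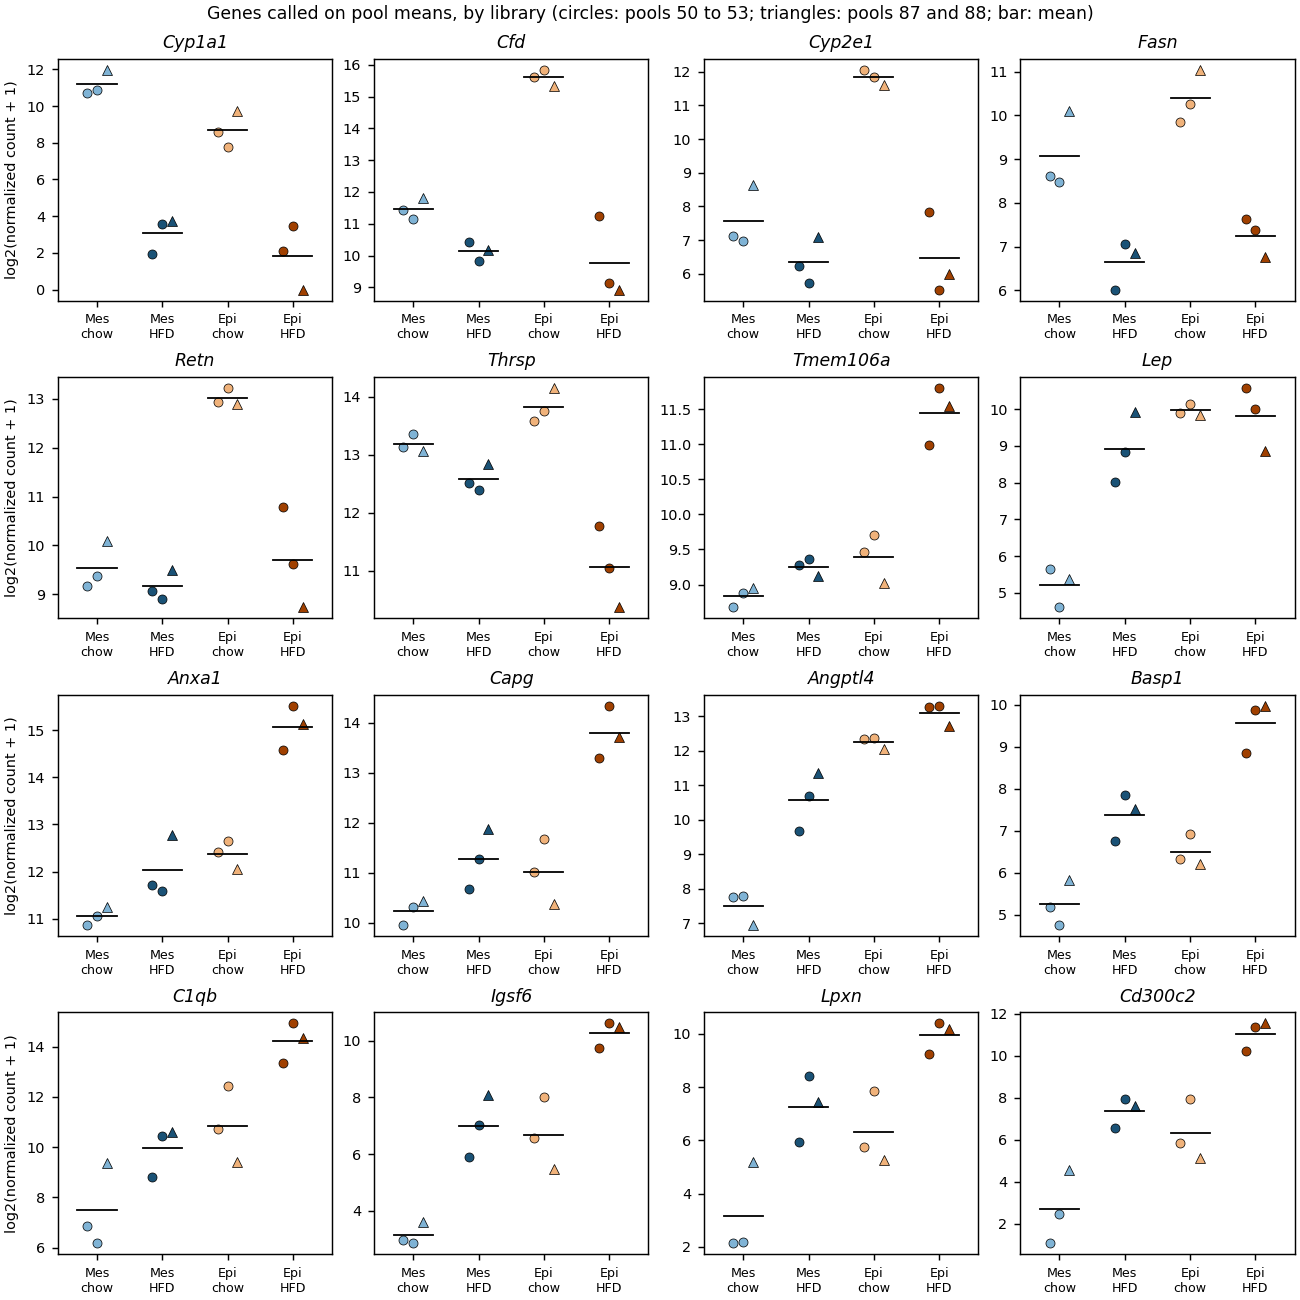
Log2(normalized count + 1) of the 16 called genes in each of the 12 libraries, grouped by tissue (Mes, mesentery; Epi, epididymal fat) and diet (chow or high fat, HFD); circles are pools 50 to 53, triangles pools 87 and 88, bars group means. Cyp1a1, Fasn, Cfd and Thrsp are lower on high fat in both tissues without overlap, while for Lep the diets are apart in mesentery and overlap in epididymal fat.

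Angptl4 (ENSMUSG00000002289), a secreted inhibitor of lipoprotein lipase that fatty acids induce through PPARs, rose on pool means and was higher in both tissues. Mesentery libraries of chow pools 50, 51 and 87 had 215, 222 and 122 normalized counts and those of high fat pools 52, 53 and 88 had 820, 1650 and 2624. Epididymal libraries had 5184, 5296 and 4267 on chow and 9813, 10151 and 6786 on high fat. The diets did not overlap in either tissue. Angptl4 rose by 1.96 on pool means (SE 0.21, adjusted p 0.0221, limma), 9.10-fold by group means in mesentery and 1.81-fold in epididymal fat. On pool means of linear values the log2 change was 1.06 (adjusted p 0.0368, limma). On reads summed per pool it was 1.05 with DESeq2 (adjusted p 3.97e-05) and 1.00 with edgeR, where the call was lost (adjusted p 0.0929). The difference between tissues, -2.23 on the log2 scale, had a 95% interval from -4.43 to -0.03 and an adjusted p of 0.974.

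In the list of PPAR targets and fat oxidation genes, 1 of 20 measured genes was called (Angptl4); 7 were higher and 0 lower with an unadjusted p under 0.05. Their median was 0.15 on pool means, 0.47 in mesentery and -0.07 in epididymal fat. In both tissues 7 were higher and 3 lower, while 10 moved in opposite ways. Among all genes tested, 0.0719% were called, and the sign was the same in both tissues for 53.3%. Plin2, which coats lipid droplets, separated the diets in both tissues, with 2171 ± 360 and 5777 ± 3680 normalized counts in mesentery and 6581 ± 672 and 27991 ± 7397 in epididymal fat (SD, n = 3); its log2 change was 1.65 with an adjusted p of 0.0508 (limma). Ucp2, a mitochondrial carrier, likewise separated them, with a log2 change of 1.45 (adjusted p 0.0895). The fat oxidation genes Cpt1a (0.64, adjusted p 0.323), Pdk4 (0.75, adjusted p 0.677) and Acadl (0.34, adjusted p 0.696) separated the diets in mesentery and overlapped in epididymal fat. Among lipid droplet genes, Hilpda, an inhibitor of lipolysis, had a log2 change of 1.17 (adjusted p 0.141) and Agpat2, an enzyme of triglyceride synthesis, one of -1.09 (adjusted p 0.0804), both without overlap in both tissues. None of the 16 lipid droplet genes was called, with 2 higher and 2 lower at an unadjusted p under 0.05.

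Several of the other 8 shared genes that rose are known from leukocytes. Cd300c2 (ENSMUSG00000044811), an activating receptor of myeloid cells, was at 1.14, 4.48 and 22.5 normalized counts in mesentery on chow (pools 50, 51 and 87) and at 92.9, 241 and 193 on high fat (pools 52, 53 and 88). The epididymal libraries were at 56.4, 246 and 34.7 on chow and at 1194, 2653 and 2965 on high fat. No high fat library fell within the chow range of its tissue. It rose by 4.69 on pool means (SE 0.50, adjusted p 0.0221, limma), with nearly the same change in mesentery (4.65) and epididymal fat (4.73); the difference of 0.07 had a 95% interval from -3.54 to 3.69. CD300 genes form a family of similar sequence, and how reads that fit several members were counted is not given in the sources used here.

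Igsf6 (ENSMUSG00000035004), an immunoglobulin superfamily protein of macrophages and dendritic cells, rose by 3.72 (SE 0.41, adjusted p 0.0221, limma). It was at 6.83, 6.27 and 11.3 normalized counts in mesentery on chow and at 58.2, 129 and 269 on high fat. Epididymal values were 94.0, 258 and 43.9 on chow and 855, 1567 and 1438 on high fat. Both tissues were without overlap, and the chow library of epididymal pool 51 was the highest of its group for Igsf6 as for Cd300c2.

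Lpxn (ENSMUSG00000024696), leupaxin, an adaptor of focal adhesions in blood cells, rose by 3.87 (SE 0.50, adjusted p 0.0434, limma). Its mesentery values were 3.42, 3.58 and 35.2 normalized counts on chow and 61.0, 337 and 172 on high fat. Its epididymal values were 53.3, 232 and 37.8 on chow and 609, 1340 and 1162 on high fat. The diets did not overlap, although pool 87 in mesentery and pool 51 in epididymal fat stood well above the other chow libraries.

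C1qb (ENSMUSG00000036905), a chain of the complement protein C1q that macrophages make, rose by 2.92 (SE 0.37, adjusted p 0.0434, limma). In mesentery it was at 116, 71.7 and 666 normalized counts on chow and at 452, 1384 and 1552 on high fat, so that chow pool 87 lay above high fat pool 52. In epididymal fat it was at 1670, 5466 and 677 on chow and at 10573, 31091 and 20714 on high fat, without overlap. C1qb was called on pool means but in neither tissue alone (adjusted p 0.654 in mesentery and 0.130 in epididymal fat).

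Basp1 (ENSMUSG00000045763), a membrane-bound protein of the inner leaflet, rose by 2.60 (SE 0.30, adjusted p 0.0275, limma). It was at 35.3, 26.0 and 56.3 normalized counts in mesentery on chow and at 108, 229 and 182 on high fat. It was at 79.9, 121 and 72.5 in epididymal fat on chow and at 462, 941 and 1011 on high fat. Separation was complete in both tissues, at 4.42-fold and 8.84-fold by group means.

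Anxa1 (ENSMUSG00000024659), annexin A1, a phospholipid-binding protein with anti-inflammatory roles, rose by 1.84 (SE 0.21, adjusted p 0.0275, limma). In mesentery it was at 1858, 2133 and 2426 normalized counts on chow and at 3347, 3097 and 6963 on high fat. In epididymal fat it was at 5436, 6409 and 4239 on chow and at 24661, 47102 and 35808 on high fat. Every high fat library exceeded every chow library of its tissue, by a wider margin in epididymal fat (6.69-fold by means) than in mesentery (2.09-fold).

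Capg (ENSMUSG00000056737), a gelsolin-like protein that caps actin filaments in macrophages, rose by 1.91 (SE 0.25, adjusted p 0.0466, limma). Its mesentery values were 987, 1263 and 1391 normalized counts on chow and 1630, 2491 and 3767 on high fat. Its epididymal values were 2076, 3281 and 1323 on chow and 10126, 20830 and 13449 on high fat. The pattern was that of Anxa1, with complete separation and the larger change in epididymal fat.

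Tmem106a (ENSMUSG00000034947), a membrane protein described in macrophages, had the smallest rise of the 9 shared genes, 1.23 (SE 0.16, adjusted p 0.0434, limma). It was at 408, 469 and 496 normalized counts in mesentery on chow and at 618, 655 and 558 on high fat. It was at 706, 831 and 519 in epididymal fat on chow and at 2022, 3574 and 2976 on high fat. The mesentery groups were close to each other yet did not overlap.

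**Figure D3:**
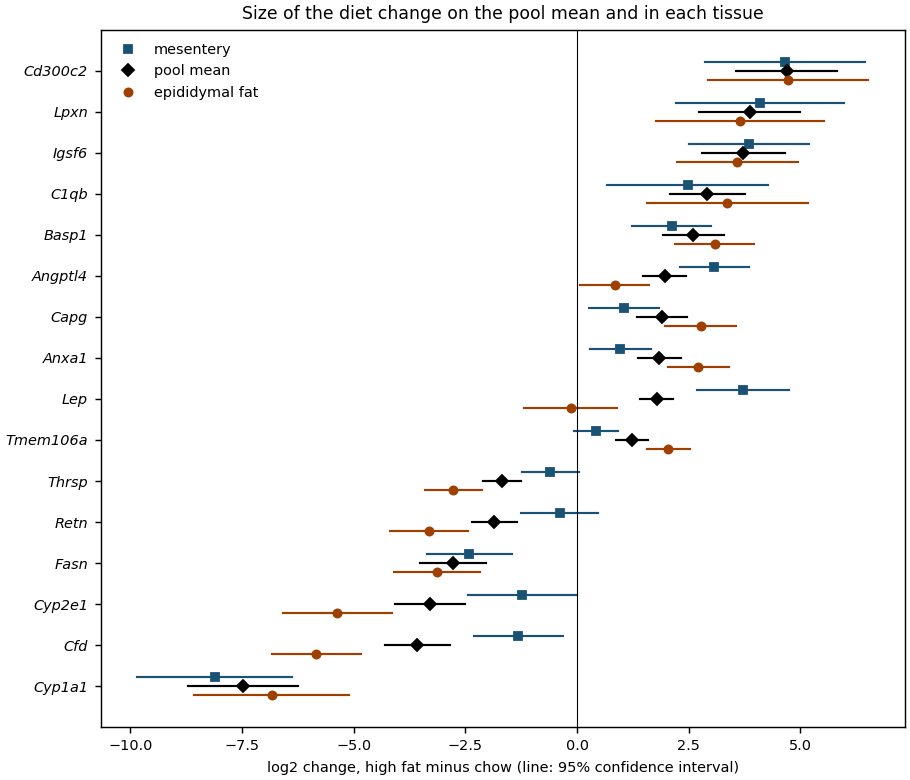
Log2 change between high fat diet and chow of the 16 called genes on pool means (diamonds), in mesentery (squares) and in epididymal fat (circles), with 95% confidence intervals from limma. The mesentery and epididymal intervals of Cyp1a1, Fasn, Cd300c2, Igsf6, Lpxn, C1qb and Basp1 overlap, while those of the other 9 genes, Cfd and Lep among them, do not.

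Macrophage markers were higher beside these genes. Of 18 measured markers, 1 was called (C1qb), where 0.0719% of all genes tested were. With an unadjusted p under 0.05, 13 were higher and 0 lower. A positive change in both tissues was found for 17, against 30.4% of all genes tested. Without overlap in both tissues 1 was higher, against 0.751%. Their median log2 change was 2.02 on pool means, 1.54 in mesentery and 2.52 in epididymal fat. The summed level of the list ranged from 2447 to 12590 normalized counts in mesentery on chow and from 7447 to 30882 on high fat, and from 8201 to 98578 in epididymal fat on chow and from 155261 to 391879 on high fat. These ranges overlapped in mesentery and not in epididymal fat. The defining marker Adgre1 was at 0 in 1 mesentery library on chow and had a log2 change of 3.77 (adjusted p 0.0573); Csf1r, the receptor that macrophages need for survival, had one of 2.63 (adjusted p 0.0747) and separated the diets in both tissues. The part of macrophage transcripts in the rise of the 8 genes was not tested.

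Lipid-associated macrophage markers, the genes of macrophages that take up lipid in obese fat, were all 15 higher with an unadjusted p under 0.05, and none was called. Their median was 1.65 on pool means, 1.24 in mesentery and 2.45 in epididymal fat. The change was positive in both tissues for 14 of the 15, against 30.4% of all genes tested. Without overlap in both tissues 3 were higher, against 0.751%. Within single tissues, 8 were called in epididymal fat and 0 in mesentery, where 0.549% and 0.0135% of all genes tested were. Atp6v0d2, a subunit of the vacuolar proton pump, was at 19.4, 0.896 and 28.2 normalized counts in mesentery on chow and at 51.3, 70.2 and 1465 on high fat. It was at 51.7, 35.6 and 22.5 in epididymal fat on chow and at 2746, 5134 and 6335 on high fat, and its log2 change of 5.53 had an adjusted p of 0.0508 (limma). In mesentery the value of pool 88 thus exceeded those of the other high fat pools by far, while in epididymal fat the 3 were closer together. The integrin gene Itgax (4.77, adjusted p 0.195) also separated the diets in both tissues, and Lgals3 (4.01, adjusted p 0.0520), Spp1 (3.30, adjusted p 0.0589), Trem2 (3.41, adjusted p 0.0895), Mmp12 (5.90, adjusted p 0.0976) and Gpnmb (5.18, adjusted p 0.225) separated them in epididymal fat and overlapped in mesentery. With the number range of the pools (50 to 53, or 87 and 88) as a covariate, 10 of these 15 genes and 7 of the 18 macrophage markers were called higher. In that fit 99 of all 22238 genes tested were called higher. The 2 list counts were 4 and 3 with TMM factors and 3 and 0 with edgeR on 12 libraries. They were 0 and 0 with libraries rescaled to the same total.

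MHC class II genes, which present antigen in macrophages, dendritic cells and B cells, had a positive change in both tissues for all 10 measured members. Of these, 8 were higher with an unadjusted p under 0.05, and 0 were called. Their median was 1.92. Of the 10, 0 separated the diets in both tissues, where 0.751% of all genes tested were higher in this way. The epididymal library of chow pool 51 had a mean level of 11.66, above those of high fat pools 52 and 88 with 10.76 and 11.17. Cd74, the invariant chain, had a log2 change of 2.29 (adjusted p 0.423). Among 12 T and B cell markers none was called, 2 were higher with an unadjusted p under 0.05, and Il7r, an interleukin receptor of lymphocytes, separated the diets in both tissues (log2 change 3.16, adjusted p 0.0652). Of 17 genes of inflammation and adhesion, 6 were higher with an unadjusted p under 0.05 and none was called; the chemokine genes Ccl2 (1.64, adjusted p 0.0652) and Cxcl1 (0.97, adjusted p 0.162) were among the 6.

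**Figure D4:**
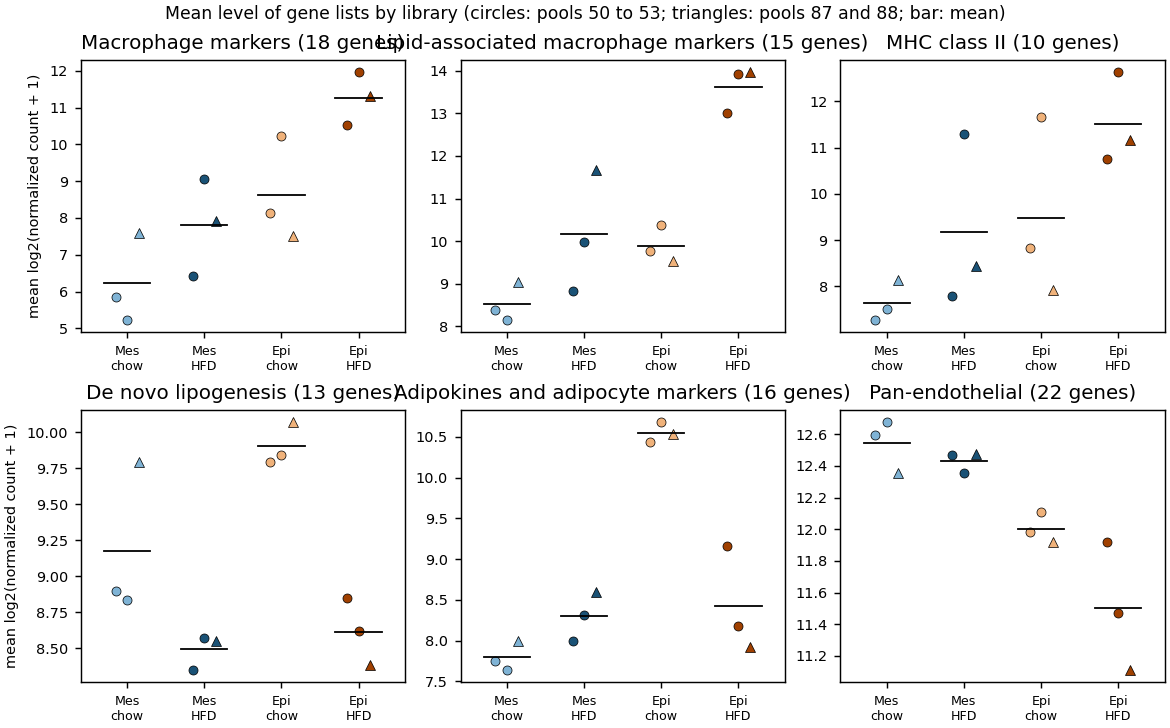
Mean log2(normalized count + 1) of the measured genes of 6 lists in each library, by tissue and diet; circles are pools 50 to 53, triangles pools 87 and 88, bars group means. The de novo lipogenesis list is lower on high fat without overlap in both tissues, the lists of macrophage markers and MHC class II genes overlap in mesentery, and the adipocyte list is lower in epididymal fat and, in the opposite direction, higher in every high fat library than in every chow library of mesentery.

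Over all genes tested, the 12 called ones included, 167 genes were higher and 130 lower on high fat without overlap in both tissues, and 133 (0.598% of the genes tested) separated the diets in opposite ways. The genes that separated in the same direction thus numbered 297. Of the 133, 90 were higher in mesentery and lower in epididymal fat, and 43 the reverse. Leaving out 1 pool widened each of these counts, since fewer libraries need to separate. Without chow pool 87 they were 1003, 692 and 681. With libraries rescaled to the same total they were 194 higher, 91 lower and 276 opposite. The surplus of genes that separated in the same direction therefore depended on the scaling.

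Ranked by the smaller of the 2 tissue changes, the 10 leading higher genes with a mean of at least 100 normalized counts in the higher diet group of each tissue were Cd300c2, Lpxn and Igsf6, and 7 that were not called. Those 7 were Atp6v0d2, Cd300ld, Lat2, Cd53, Slc11a1, Fermt3 and Csf2ra. Cd300ld, a relative of Cd300c2, was at 10.2, 0 and 0 normalized counts in mesentery on chow and at 38.8, 139 and 709 on high fat, with a log2 change of 5.06 on pool means (adjusted p 0.0508, limma). Lat2, an adaptor of immune receptors, had a log2 change of 3.74 (adjusted p 0.0655), and Cd53, a leukocyte tetraspanin, one of 3.08 (adjusted p 0.0804). Slc11a1, a metal transporter of phagosomes, had a log2 change of 2.87 (adjusted p 0.0508), Fermt3, the integrin activator kindlin-3 of blood cells, 2.76 in mesentery and 2.64 in epididymal fat (adjusted p 0.0652 on pool means), and Csf2ra, a subunit of the GM-CSF receptor, one of 2.90 (adjusted p 0.0804). Except for Atp6v0d2 and Cd300ld, the mesentery and epididymal changes of each of these 7 genes lay within 1 log2 unit of each other.

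The 10 leading lower genes by the same ranking and the same limit, which here applies to the chow groups, were Cyp1a1, Fasn and Cfd, and 7 smaller changes that were not called: Fkbp5, Sort1, Meis1, Rn7sk, Bbs2, Prdm1 and Rasgrf2. Fkbp5, a chaperone that glucocorticoids induce, was at 481, 402 and 556 normalized counts in mesentery on chow and at 262, 254 and 267 on high fat. Epididymal values were 883, 317 and 292 on chow and 168, 234 and 214 on high fat, and its log2 change of -0.98 had an adjusted p of 0.215 (limma). The high fat libraries were close together and the chow libraries spread. Prdm1, a transcriptional repressor, was at -0.88 (adjusted p 0.135), Meis1, a homeobox gene, at -1.10 (adjusted p 0.353), and Sort1, the sorting receptor sortilin, at -0.85 (adjusted p 0.285). Rn7sk, the 7SK RNA that restrains transcription elongation, was at -0.94 (adjusted p 0.133); it has many near-identical copies in the genome, so its count is uncertain. Bbs2, a gene of cilia, and Rasgrf2, a Ras activator, were at -0.69 (adjusted p 0.474) and -0.67 (adjusted p 0.390).

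None of the 22 measured pan-endothelial genes was called, where 0.0719% of all genes tested were. A negative change in both tissues was found for 18 of the 22, against 22.8% of all genes tested. With an unadjusted p under 0.05, 7 were lower and 1 higher (2.55% and 4.09% of all genes tested). Without overlap in both tissues 1 was lower (0.585% of all genes tested). Their median was -0.39 on pool means, -0.25 in mesentery and -0.54 in epididymal fat. The 7 lower ones included Kdr, the main VEGF receptor (-0.73, adjusted p 0.579), Flt1, its decoy relative (-0.57, adjusted p 0.594), Emcn, a sialoglycoprotein of capillaries and veins (-0.71, adjusted p 0.442), Eng, a co-receptor of the TGF-beta family (-0.53, adjusted p 0.332), and Nos3, the endothelial nitric oxide synthase (-0.42, adjusted p 0.458). The higher one was Cldn5, a tight junction protein, at 0.93 (adjusted p 0.199), with a change of 1.80 in mesentery and 0.05 in epididymal fat. Summed, the list ranged from 286711 to 454381 normalized counts in mesentery on chow and from 294043 to 379389 on high fat, which overlap. In epididymal fat it ranged from 123252 to 145597 on chow and from 69649 to 126708 on high fat, which also overlap.

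**Figure D5:**
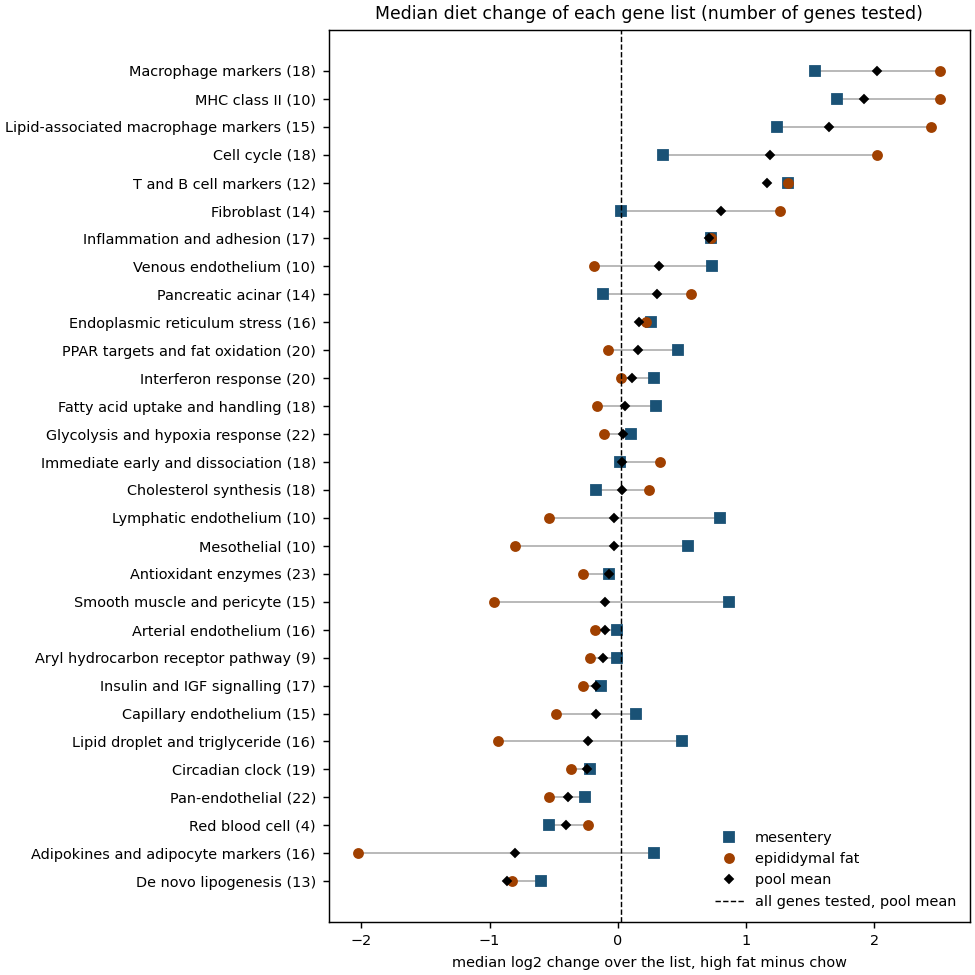
Median log2 change between high fat diet and chow of 30 gene lists on pool means (diamonds), in mesentery (squares) and in epididymal fat (circles), with the number of genes tested in brackets; the dashed line is the median of all genes tested on pool means. Macrophage and MHC class II lists lie farthest to the right in both tissues, de novo lipogenesis lies to the left in both, and the adipocyte list lies on opposite sides of 0 in the tissues.

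Other lists were described by the same counts at an unadjusted p under 0.05, and none of the members counted here was called. Over all genes tested, 4.09% were higher and 2.55% lower at this threshold. Of 18 cell cycle genes 8 were higher, with a median of 1.19 on pool means but 0.35 in mesentery and 2.02 in epididymal fat; Birc5, a mitotic survivin gene, separated the diets in both tissues (2.11, adjusted p 0.0652). Of 14 fibroblast genes 5 were higher and 1 lower, with medians of 0.02 in mesentery and 1.26 in epididymal fat. Of 19 circadian clock genes 3 were lower and 0 higher, with a median of -0.24 on pool means, and the output factor gene Hlf (-0.97, adjusted p 0.662) and the repressor gene Cry1 (-0.56, adjusted p 0.656) were among the 3. Of 17 insulin and IGF signalling genes 4 were lower and 0 higher, among them Igfbp3, an IGF carrier (-0.98, adjusted p 0.423), Pik3r1, the regulatory subunit of PI3-kinase (-0.74, adjusted p 0.371), and Foxo1, the factor that insulin restrains (-0.43, adjusted p 0.477). Hmox1, the haem-degrading enzyme, and Oas1a, an interferon-induced gene, each separated the diets in both tissues, at 0.88 (adjusted p 0.133) and 0.88 (adjusted p 0.0866). Without overlap in both tissues, 1 of 20 interferon response genes was higher, and of 23 antioxidant genes 1 was higher and 1 lower. Over all genes tested these shares were 0.751% and 0.585%. By sign in both tissues, 9 interferon genes were higher and 1 lower, and 4 antioxidant genes were higher and 9 lower. The list medians were 0.11 and -0.07 on pool means.

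Whether the change differed between tissues was tested on the within-pool difference of the 2 libraries. No gene passed after adjustment (0 of 22238 with limma), and 1109 genes (4.99%) had an unadjusted p under 0.05; no count model was run on this difference. Of the 16 called genes, 9 had an unadjusted p under 0.05 for the difference, and the change was larger in size in epididymal fat for 11. The smallest differences were those of Cd300c2 (difference 0.07, 95% interval -3.54 to 3.69), Igsf6 (-0.26, interval -2.90 to 2.38) and Lpxn (-0.45, interval -4.11 to 3.20). These intervals are wide, so that differences of several log2 units in either direction were not detectable with 3 pools a side. Over all genes tested the sign of the change was the same in both tissues for 53.3%, and over genes with an unadjusted p under 0.05 on pool means for 94.1%, a share that averaging the tissues raises by construction.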

How the data were processed

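Bulk RNA-seq of sorted endothelial cells was analysed in 12 libraries, as 6 pools. The deposited values are a signal: read counts of each gene after division by a size factor of the library. Per the submitters' processing notes, tools named for the processing include STAR 2.7.9a, featureCounts of Subread and DESeq2 1.34.0, with the build mm39; which annotation was used, and whether strand was, is not given in the sources used here. All values (100%) were whole reads times a factor of the library, to within 1e-06, and library totals were 8348897 to 25397963 reads. The lowest total for a gene was 51 reads, and 5587 genes fell below the filter. Promoter sequences came from RefSeq for GRCm38.p6, another build than that of the counts, and were matched by symbol (15 of 16 called genes).

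Pool means of log2(normalized count + 1) were fitted with limma 3.58.1 in R 4.3.3 (lmFit, eBayes with a mean-variance trend), two-sided, with Benjamini-Hochberg adjustment over all 22238 genes and a threshold of 0.05. The pseudocount of 1 understates changes of low genes. A fit with a mean per group gave the change in each tissue, and a fit of the within-pool difference, epididymal minus mesentery, gave the difference between tissues. Both were adjusted the same way. Unadjusted p-values of limma are named as such. As alternatives, edgeR 4.0.16 and DESeq2 1.42.0 were run on the recovered reads. The pool code was tested on simulated data.

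Named genes were: called genes with a mean of at least 100 normalized counts on the higher diet, up to 15 each way; the 10 higher and 10 lower genes without overlap in both tissues whose smaller change was largest, if the higher diet group averaged at least 100 in each tissue; called genes of opposite sign, up to 3; and members of the lists as examples. Predicted genes, clone names, pseudogenes and rows without a symbol were not named. Gsta3, a list member, shared the adjusted p nearest to the threshold with 4 other named genes. The comparison, the 30 gene lists and these rules were chosen with earlier results of these data known. Intervals and the floor of 3 reads cover the spread between libraries and counting error, respectively, and nothing else. No set test was run. Results for some genes are not reported here.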

Additional observations from a re-analysis of the deposited data

Results flagged for a closer look

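The 12 genes of the lists that are described here separated the diets in opposite directions in the tissues: all 3 high fat libraries lay above all 3 chow libraries in one tissue and below them in the other. None passed the test of the difference after adjustment (limma on within-pool differences, adjusted p between 0.862 and 0.974). Values below are the epididymal minus the mesentery log2 change. Vessel wall genes among them were Kcnj8, a potassium channel subunit of pericytes (-3.68), Rgs5, a pericyte regulator of G proteins (-2.20), Des, the filament protein desmin (-1.80), and Higd1b (-1.51). Genes of lipid storage and its control were Plin4, a lipid droplet coat protein (-3.61), Cidec, which promotes droplet fusion (-2.78), G0s2, an inhibitor of lipolysis (-2.77), Fitm2, needed to form droplets (-2.01), and Pparg, the regulator of fat cell genes (-1.28). The remaining ones were Bnip3, a mitophagy receptor (-1.68), Cat, the gene of catalase (-1.16), and Cpt2, an enzyme of fat oxidation (-1.03). On high fat, all 12 were higher in mesentery and lower in epididymal fat.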

How the results depend on the processing

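The count of called genes (16, of which 15 shared) varied widely. It was 16 (15 shared) with a pseudocount of 0.5, 14 (13) with 4, 14 (13) without the filter and 24 (23) with robust moderation. It was 88 (86) with a mean of at least 50, 9 (8) with libraries rescaled to the same total, 40 (39) with TMM factors, 124 (119) with the number range as a covariate, 105 (92) on linear means and 8 (8) with the pool as a random effect. It was 0 (0) with eBayes without trend and 0 (0) in pools 50 to 53 alone, where 2828 genes had an unadjusted p under 0.05. edgeR gave 28 (27) on 12 libraries and 74 (66) on reads summed per pool; DESeq2 gave 490 (489) and 571 (481). Leaving out 1 pool gave 0 to 117 (0 to 114). Title letters are shared across diets but did not pair the pools: correlations of deviations were -0.41, 0.37 and -0.21 for A, B and C, whereas pools followed the number range (mean 0.31 within and -0.39 between ranges). A replicate block for the letter gave 117 calls (113 shared), all 16 among them; not every pool correlated best with its own letter. The block left 0 calls for the difference between tissues. Deviations of the mesentery and epididymal library of a pool from their group means correlated weakly in most pools. The values were 0.03, 0.53, 0.15, -0.11, 0.58 and -0.15 for pools 50, 51, 52, 53, 87 and 88.

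Without overlap in both tissues, leaving out 1 pool gave 248 to 1003 higher, 226 to 692 lower and 251 to 681 opposite genes. Rescaling to the same total gave 194 higher, 91 lower and 276 opposite ones. For the single genes followed, 1926 values under alternatives kept direction and side of the threshold, 263 passed it newly and 125 no longer passed it, with the same direction. The causes of these shifts were not tested. The 3 pools a side and, for genes near 3 reads, the depth limit what can be seen.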
